A study of Mus musculus with 2 samples.

Results

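The erythroid microRNA (miRNA) genes Mir451a, Mir144 and Mir486, together with Mir451b on the strand opposite Mir451a, were followed in small RNA libraries of mouse hippocampus (layer of hippocampus in the labels). They were chosen by gene symbol in the GENCODE M21 annotation, which gave 4 of the 2202 annotated miRNA genes. The tissue came from female B6CASTF1/J mice, the F1 cross of C57BL/6J with CAST/EiJ, aged 36 days, from The Jackson Laboratory. The 2 libraries, biological replicates 1 and 2, form 1 group in which no treatment, genotype or age was contrasted, so the comparison below is between libraries. The labels give the replicates separate biosample entries but the same donor entry, and whether they came from different animals is not settled by them, so how much of their spread is technical is unknown. Whether the blood was flushed from the tissue before dissection is not given in the sources used here.

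Red blood cells of mammals lose their nucleus but keep miRNAs made while the cell matured. Mir144 and Mir451a are known to be transcribed together from a locus driven by the erythroid factor GATA1, and to buffer maturing red cells against oxidative stress. The hairpin of Mir451a is too short for Dicer, the enzyme that cuts most miRNA hairpins, and is cut by Argonaute 2 instead. Mir486 lies within Ank1, the gene of ankyrin of the red cell membrane skeleton, and is known from both red cells and muscle. These miRNAs are often read as signs of blood in a tissue, although none of them is a direct count of red cells.

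The sequences show which reads can be told apart. RefSeq (GRCm38.p6) held sequences for 3 of the 4 genes; Mir486 is named only. In the hairpins, given 5′ to 3′, capitals mark the mature miRNA, and the mature miR-451a reaches from base 17 to base 38 of its hairpin, running into the loop.
Mir144 hairpin: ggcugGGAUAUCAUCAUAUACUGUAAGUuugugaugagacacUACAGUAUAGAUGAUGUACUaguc
Mir451a hairpin: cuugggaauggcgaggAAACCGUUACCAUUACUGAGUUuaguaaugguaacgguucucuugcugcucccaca
Mir451b hairpin: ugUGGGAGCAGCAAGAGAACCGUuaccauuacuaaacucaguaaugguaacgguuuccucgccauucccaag

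In the mature sequences, capitals mark the seed (bases 2 to 8), the part that pairs with target messenger RNAs.
mmu-miR-451a: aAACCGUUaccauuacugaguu
mmu-miR-144-3p: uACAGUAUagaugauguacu
mmu-miR-144-5p: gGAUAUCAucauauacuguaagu
mmu-miR-451b: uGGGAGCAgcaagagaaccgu
No seed was shared among these 4, and each seed belonged to only 1 mature miRNA in the RefSeq table. They therefore form no seed family here, although Mir144 and Mir451a lie side by side.

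Mir144 (ENSMUSG00000065401.1) lies at chr11:78073005-78073070 on the plus strand of mm10. Mir451a (ENSMUSG00000070065.1) follows on the same strand at chr11:78073170-78073241, with 99 bases between the hairpins. Mir451b (ENSMUSG00000104813.1) is annotated over exactly the same bases as Mir451a on the minus strand. These 3 hairpins lie in no other annotated gene, and the protein-coding gene Eral1, on the minus strand, ends 134 bases beyond Mir451a. Mir486 (ENSMUSG00000070084.3) lies at chr8:23142555-23142682 on the plus strand, in an intron of Ank1 on the same strand and of the noncoding gene Gm15816 on the opposite strand. Opposite Mir486 is the miRNA gene Mir3107, at chr8:23142573-23142662.

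Each of these opposite pairs reads alike on both strands, to a different length. Between Mir451a and Mir451b the longest identical stretch was 16 bases, shorter than the mature miR-451a of 22 bases. No other annotated hairpin held the mature miR-451a, and no more than its first 8 bases began a match in any of them. Between Mir486 and Mir3107 the longest identical stretch was 22 bases, found in both arms of the hairpin, at bases 33 to 54 and 73 to 94 of the 128 bases of Mir486. A read of that stretch has a place on each strand, and reads with several places are not in the gene counts. The level of Mir486 is therefore uncertain as a level of its miRNA, and how many of its reads were set apart was not tested. Matches outside the annotated hairpins were not searched.

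**Figure D1:**
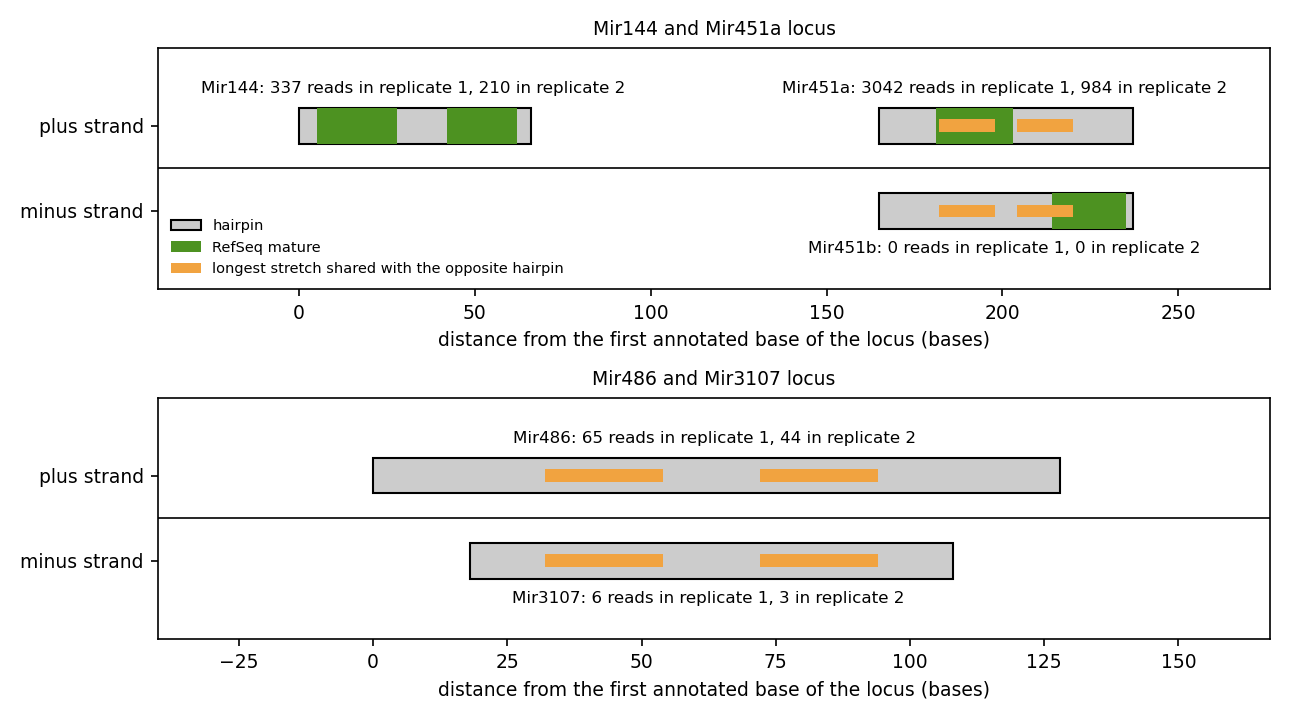
Map of the Mir144 and Mir451a locus (above) and the Mir486 and Mir3107 locus (below), drawn to scale by distance in bases from the first annotated base, with hairpins in grey, RefSeq mature miRNAs in green and the longest stretches shared by opposite hairpins in orange. The shared stretches are 16 bases long between Mir451a and Mir451b and 22 bases between Mir486 and Mir3107.

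The libraries held 2928141 and 3644157 sense reads on miRNA genes in replicates 1 and 2, of 9595913 and 10489588 reads in all. Levels are counts per 1000000 of those sense reads (CPM). Detection meant 10 or more reads in both libraries, which 376 of the 2202 genes (17.1%) reached. Of 12 genes of neuronal miRNAs 8 were detected, led by Mir132 at 12153 and 10636 CPM and Mir137 at 9112 and 12631 CPM in replicates 1 and 2. The 3 Mir124a genes and Mir9-2 had fewer than 10 reads and Mir9-1 stood at 11.3 and 17.01 CPM, all with hairpins shared with copies. Mir9-3, whose hairpin is shared with copies too, stood at 111 and 132 CPM.

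Mir451a was the most abundant of the erythroid genes and was far more abundant in replicate 1. It had 3042 sense reads in replicate 1 and 984 in replicate 2, which is 1039 CPM (exact Clopper-Pearson 95% interval 1002 to 1076) and 270.02 CPM (253 to 287). It stood 90th among all miRNA genes in replicate 1 and 157th in replicate 2. Neither library's interval reached the other's, so the mean of 654 ± 544 CPM (SD, n = 2) describes no library well. All intervals here cover counting error only, because they come from read counts with no replicate behind them. Repeated copies of a molecule could not be recognised, so the intervals may be too narrow even for that.

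Mir144, the neighbour of Mir451a, was lower and also higher in replicate 1. It had 337 and 210 sense reads in replicates 1 and 2, or 115 CPM (103 to 128) and 57.6 CPM (50.1 to 66.0). The mean was 86.4 ± 40.6 CPM (SD, n = 2), and the intervals of the libraries did not overlap. Counts are per hairpin, so miR-144-3p, the arm usually given as the active one, and miR-144-5p were not told apart.

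Mir486 had few reads that were placed once. It had 65 and 44 sense reads in replicates 1 and 2, or 22.2 CPM (17.1 to 28.3) and 12.1 CPM (8.77 to 16.2), with a mean of 17.1 ± 7.16 CPM (SD, n = 2). Mir3107, opposite it, had 6 and 3 reads, under the detection minimum. In reads placed once, the order Mir451a, Mir144, Mir486 was the same in both libraries, and no interval of a gene reached that of the next in the same library. The place of Mir486 does not carry over to the miRNA itself, since its reads with several places are not counted.

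Mir451b had 0 reads in both libraries. For reads placed once, 0 counts allow up to 3 as a one-sided limit, which is 1.02 CPM in replicate 1 and 0.823 CPM in replicate 2; the two-sided exact intervals used for the other genes end at 1.26 and 1.01 CPM. The antisense counts of Mir451b, 3042 and 984, are the sense reads of Mir451a seen from the other strand. Counted without regard to strand, both Mir451a and Mir486 had 0 reads, and of the 3 detected genes only Mir144 was left.

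All 4 genes together held 3444 and 1238 reads, which is 0.118% and 0.0340% of the reads on miRNA genes in replicates 1 and 2. Most of them were reads of Mir451a, so the summed level of 1176 and 340 CPM follows that gene. In a bulk tissue sample, fewer red cells and less of the miRNA per red cell cannot be told apart. Whether the reads came from red cells, and how much of the difference is technical, was not tested.

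**Figure D2:**
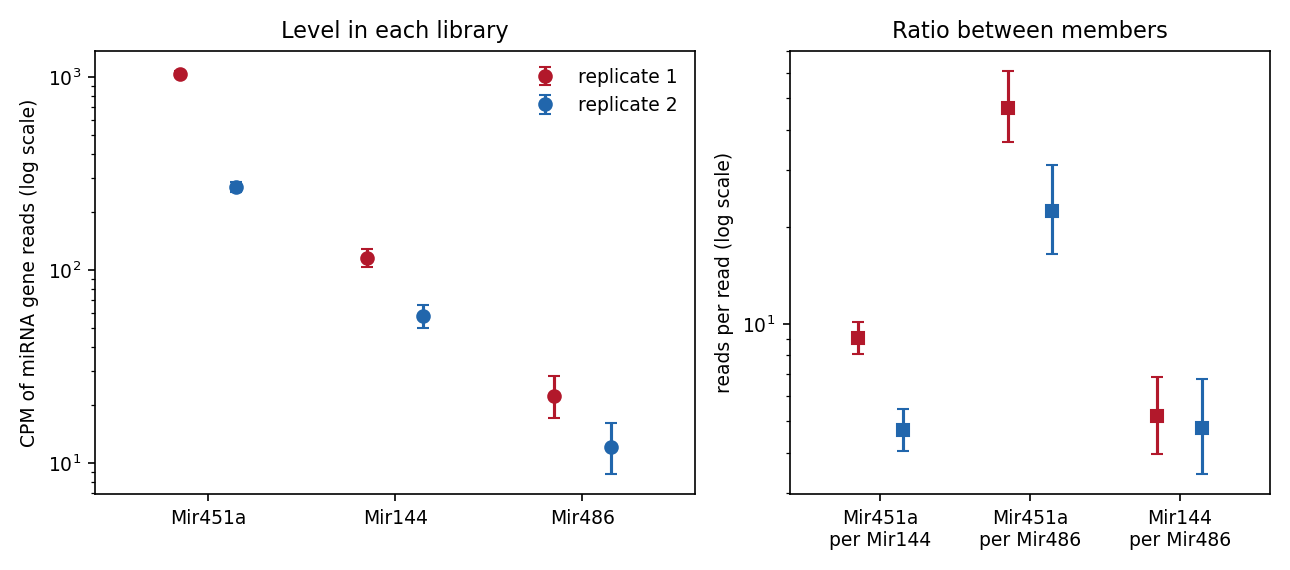
Left, CPM of the 3 detected erythroid genes in replicate 1 (red) and replicate 2 (blue), with exact 95% intervals on a log axis; right, reads of a gene per read of another in each library, with exact 95% intervals on a log axis. Each gene is higher in replicate 1, and the ratios with Mir451a on top are higher there too, while Mir144 per Mir486 is at 5.18 and 4.77.

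In reads placed once, all 3 detected genes were higher in replicate 1, Mir451a by a larger factor than Mir144 or Mir486. The ratio of replicate 1 to replicate 2 was 3.85 for Mir451a (exact binomial 95% interval 3.58 to 4.14), 1.997 for Mir144 (1.68 to 2.38) and 1.84 for Mir486 (1.23 to 2.76). An exact binomial test of the reads (two-sided; Benjamini-Hochberg over all 474 miRNA genes whose counts summed to 10 or more) called all 3 genes. The adjusted p was 6.1e-15 for Mir144 and 0.0042 for Mir486 by this exact test, and too small to be held as a number for Mir451a. The same test called 58.0% of all genes tested, and 26.4% as higher in replicate 1. It compares 2 libraries, not conditions, takes counting error as the only noise, and has no replicate behind either side.

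Set against the other miRNA genes, Mir451a stood further out than its companions. The log2 ratio between libraries had an SD of 0.86 over 295 genes averaging 50 or more reads. On that scale Mir451a was at 1.94, past 2 SD, while Mir144 (1.00) and Mir486 (0.88) were near 1 SD. Among the 399 genes averaging 10 or more reads, 4 were further towards replicate 1 than Mir451a, 27 than Mir144 and 32 than Mir486. A ratio of 2-fold or more, read only for genes averaging 20 or more reads, was reached by Mir451a alone of the erythroid genes, with Mir144 just short of it at 1.997; 14.1% of 347 genes met that rule, and 5.19% did so as higher in replicate 1.

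**Figure D3:**
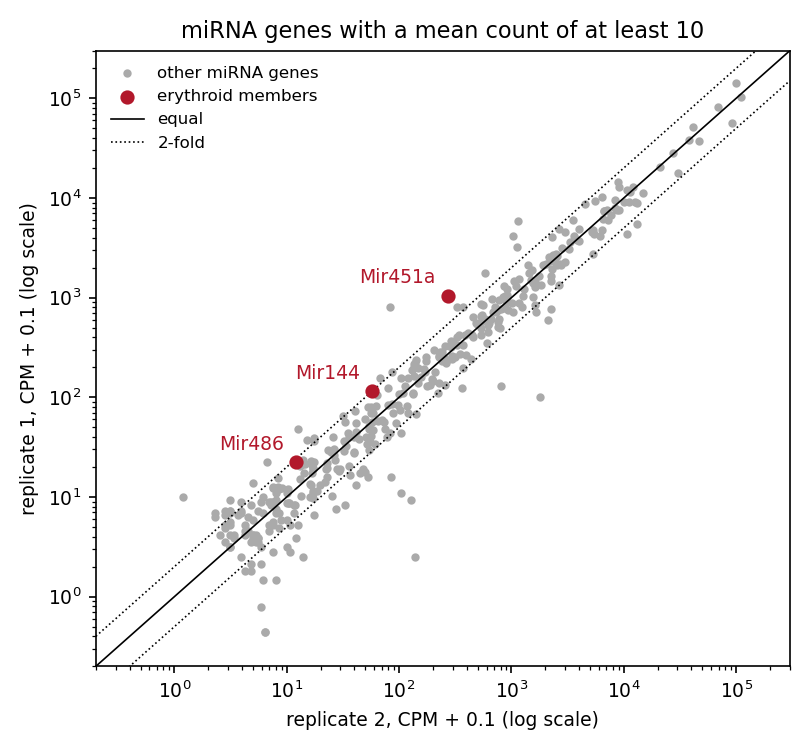
CPM + 0.1 of each miRNA gene averaging 10 or more reads in replicate 2 (x axis) and replicate 1 (y axis), both on log axes, with the line of equal levels and dotted lines at 2-fold. The erythroid genes (red) lie above the line of equal levels, and Mir451a lies clear of the 2-fold line.

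The proportion of Mir451a to Mir144, its neighbour on the same strand, differed between these libraries beyond counting error. There were 9.03 reads of Mir451a per read of Mir144 in replicate 1 (8.06 to 10.1) and 4.69 in replicate 2 (4.03 to 5.46). The odds ratio, which does not depend on library totals, was 1.93 (exact 95% interval 1.59 to 2.33; Fisher's exact test, two-sided, p = 4.9e-11 after adjustment over 3 pairs), and this test too takes counting error as the only noise. Such a difference was not particular to this pair. Of 44 other pairs of adjacent miRNA genes on the same strand, with at most 1000 bases between them and 100 or more reads on average, 11 differed in proportion by at least as much, and the median difference was 1.35-fold.

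In reads placed once, the proportion of Mir451a to Mir486, which lies on another chromosome, differed as well. Reads of Mir486 with several places are not counted, so the proportions with Mir486 do not carry over to the miRNA itself. Reads of Mir451a per read of Mir486 were 46.8 (36.6 to 60.8) in replicate 1 and 22.4 (16.5 to 31.0) in replicate 2, an odds ratio of 2.09 (1.38 to 3.14; adjusted p = 4.4e-04 by Fisher's exact test). Between Mir144 and Mir486 no difference in proportion was detectable. The odds ratio was 1.09 (0.696 to 1.68; adjusted p = 0.75 by Fisher's exact test), an interval that still allows a change of up to 1.68-fold.

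Genes just above and below the erythroid genes in mean level did not share their ratio. Mir1249 and Mir101b stood next to Mir451a at 667 ± 135 and 641 ± 202 CPM (SD, n = 2), and both were lower in replicate 1, with ratios of 0.749 and 0.635. Mir3059 and Mir493 stood next to Mir144, with ratios of 0.735 and 0.981, and Mir26a-1 and Mir669l next to Mir486, with ratios of 0.277 and 1.04. Mir101b, Mir26a-1 and Mir669l each share a stretch of 20 bases with another annotated miRNA gene. None of these neighbours differed in mean level from its erythroid gene beyond the spread between the libraries, so the places in the order are not fixed.

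Among genes averaging 100 or more reads, the 5 whose ratio was closest to that of Mir451a over the 2 libraries were Mir298 (4.03), Mir29c (3.005), Mir219a-2 (2.86), Mir107 (5.18) and Mir34a (2.49). With 2 libraries, likeness is only the closeness of this ratio. Mir219a-2 is known from oligodendrocytes, the myelin-forming cells, and is not a blood marker. Mir107, Mir29c and Mir219a-2 share a stretch of 20 bases with another annotated miRNA gene and are uncertain as single genes.

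Other miRNAs known as abundant in red blood cells, none specific to them, were called in both directions. As counted, the list held 14 genes, without the Mir92a genes, which the annotation names Mir92-1 and Mir92-2. Those were lower in replicate 1, at 245 and 435 CPM and at 6.49 and 17.6 CPM in replicates 1 and 2. The calls, median and sums given here leave them out. Of the 14 genes counted, 13 averaged 10 or more reads. Of these, 6 passed the read test as higher in replicate 1 and 5 as higher in replicate 2. Among the latter, Mir16-1 and Mir16-2 each share a stretch of 20 bases with another annotated miRNA gene and are uncertain as single genes. Over all 474 genes tested, 58.0% were called, and 26.4% as higher in replicate 1. The median log2 ratio of the list was -0.01, against -0.03 over all 399 genes. Its summed level was 6585 and 6447 CPM in replicates 1 and 2. None was at 0 in both libraries. Mir185 had 2163 and 2048 CPM and Mir93, of the Mcm7 intron, 1653 and 2232 CPM. Mir15a, at 815 and 368 CPM, was the only one of the 13 with a ratio above that of Mir144 (2.21, interval 2.07 to 2.37). Members of the same list differed by more in the other direction, with Mir182 at 2.39 and 139.7 CPM (ratio 0.0171) and Mir363 at 1.37 and 7.96 CPM (ratio 0.172). Mir96 had fewer than 10 reads in both libraries.

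Of 9 white blood cell miRNAs, 7 averaged 10 or more reads. Of these, 1 passed the read test as higher in replicate 1 and 4 as higher in replicate 2. The share called over all genes tested was 58.0%, and 26.4% as higher in replicate 1. The median log2 ratio of the list was -0.18, with summed levels of 3624 and 4764 CPM in replicates 1 and 2. Mir342 was at 1471 and 2246 CPM, Mir150, a miRNA of mature lymphocytes, at 814 and 1229.9 CPM, and Mir146 at 674 and 545 CPM. Mir146 and Mir181a-1 each share a stretch of 20 bases with another annotated miRNA gene and are uncertain as single genes. Mir142, made across blood cell lineages and in microglia, was at 57.4 and 64.8 CPM, a difference that was not called. Mir223, the miRNA of neutrophils and platelets, had 1 read in replicate 1 against 23 in replicate 2 (ratio 0.0541, exact 95% interval 0.00131 to 0.333). Mir142b was at 0 in both libraries and Mir146b under 10 reads.

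The proportion of Mir451a to these white cell genes differed between the libraries. This follows from the levels given above and is no separate support. Reads of Mir451a per 100 reads of Mir150 were 128 in replicate 1 and 22.0 in replicate 2, a 5.81-fold change (exact 95% interval 5.32 to 6.35). Per 100 reads of Mir142 they were 1811 and 417, a 4.34-fold change (3.50 to 5.39). Whether white and red cells were left in the tissue in different proportions was not tested, and microglia or neurons also make several of these miRNAs.

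Of 6 endothelial miRNAs, 5 averaged 10 or more reads. Of these, 3 passed the read test as higher in replicate 1 and 0 as higher in replicate 2. The same test called 58.0% of all genes tested in either direction, and 26.4% as higher in replicate 1. The median log2 ratio of the list was 0.49, with summed levels of 16067 and 10065 CPM in replicates 1 and 2. Mir126a, which lies in the endothelial gene Egfl7, was at 14516 and 8969 CPM (ratio 1.62, interval 1.595 to 1.64). Mir322 was at 1473 and 1049 CPM, and Mir10b at 37.6 and 15.1 CPM. Mir10a (ratio 1.28, interval 0.896 to 1.84) and Mir503 (ratio 1.22, interval 0.813 to 1.83) were not called. Mir126b, opposite Mir126a, was at 0 in both libraries.

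Mir451a was also set against miRNAs of the vessel wall, which does not use the library totals. Each change below follows from the reads of both genes in each library, so it is no separate support. Its reads per 100 reads of Mir126a were 7.16 in replicate 1 and 3.01 in replicate 2, a 2.38-fold change (2.21 to 2.56). Per 100 reads of Mir143, a miRNA of pericytes and smooth muscle, they were 21.9 and 4.22, a 5.20-fold change (4.82 to 5.61). Mir143 and Mir145a were lower in replicate 1, at 4740 and 6401 CPM and at 179.6 and 209 CPM, with both genes of this list called higher in replicate 2, a median log2 ratio of -0.32, summed levels of 4920 and 6610 CPM, and Mir145b at 0. Mir126a and Mir143, the leading genes of both lists, thus differed in opposite directions. The read test called 58.0% of all genes tested in either direction.

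Platelets share Mir223 and Mir126a with the lists above, and no other gene of their list of 6 averaged 10 or more reads; the median log2 ratio of that pair was -1.76. Its summed level, 14520 and 8975 CPM, was nearly all Mir126a; Mir126b and Mir199a-1 were at 0, Mir199a-2 had fewer than 10 reads in both libraries, and Mir199b had 10 reads in replicate 1 and 0 in replicate 2. Mir122, the main miRNA of liver cells, was at 37.9 and 43.9 CPM in replicates 1 and 2 (ratio 0.863, interval 0.672 to 1.11), and was not called. Of that list 3 of 4 genes averaged 10 or more reads, with 1 (Mir192, 3.76 and 12.1 CPM) called higher in replicate 2. Over all genes tested, 58.0% were called in either direction. The list had a median log2 ratio of -0.21 and summed levels of 62.5 and 72.7 CPM. Mir194-2, which shares a stretch of 20 bases with another annotated miRNA gene, was at 20.8 and 16.7 CPM and Mir194-1 at 0.

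Genes of the surrounding tissue also passed the read test, which called 58.0% of all genes tested and 26.4% as higher in replicate 1. Of 4 choroid plexus genes averaging 10 or more reads, 1 did so as higher in replicate 1 and 2 as higher in replicate 2 (median log2 ratio -0.95, sums of 1147 and 2661 CPM), with Mir204 at 593 and 2101 CPM, Mir34c at 421 and 446 CPM, Mir449a at 124 and 80.4 CPM, Mir449b at 0 and Mir211 and Mir449c under 10 reads. Of 8 such neuronal genes, 3 did so as higher in replicate 1 and 4 as higher in replicate 2 (median log2 ratio -0.36, sums of 36659 and 41459 CPM). Mir128-1 was at 4326 and 10622 CPM. Mir128-1, Mir128-2, Mir138-1 and Mir138-2 each share a stretch of 20 bases with another annotated miRNA gene and are uncertain as single genes. Mir124a-1, Mir124a-2, Mir124a-3 and Mir9-2, whose hairpins share sequence with their copies, had fewer than 10 reads each. Mir9-3 shares sequence likewise and was at 111 and 132 CPM. The part of choroid plexus, vessel or neuron content in the erythroid difference was not tested.

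**Figure D4:**
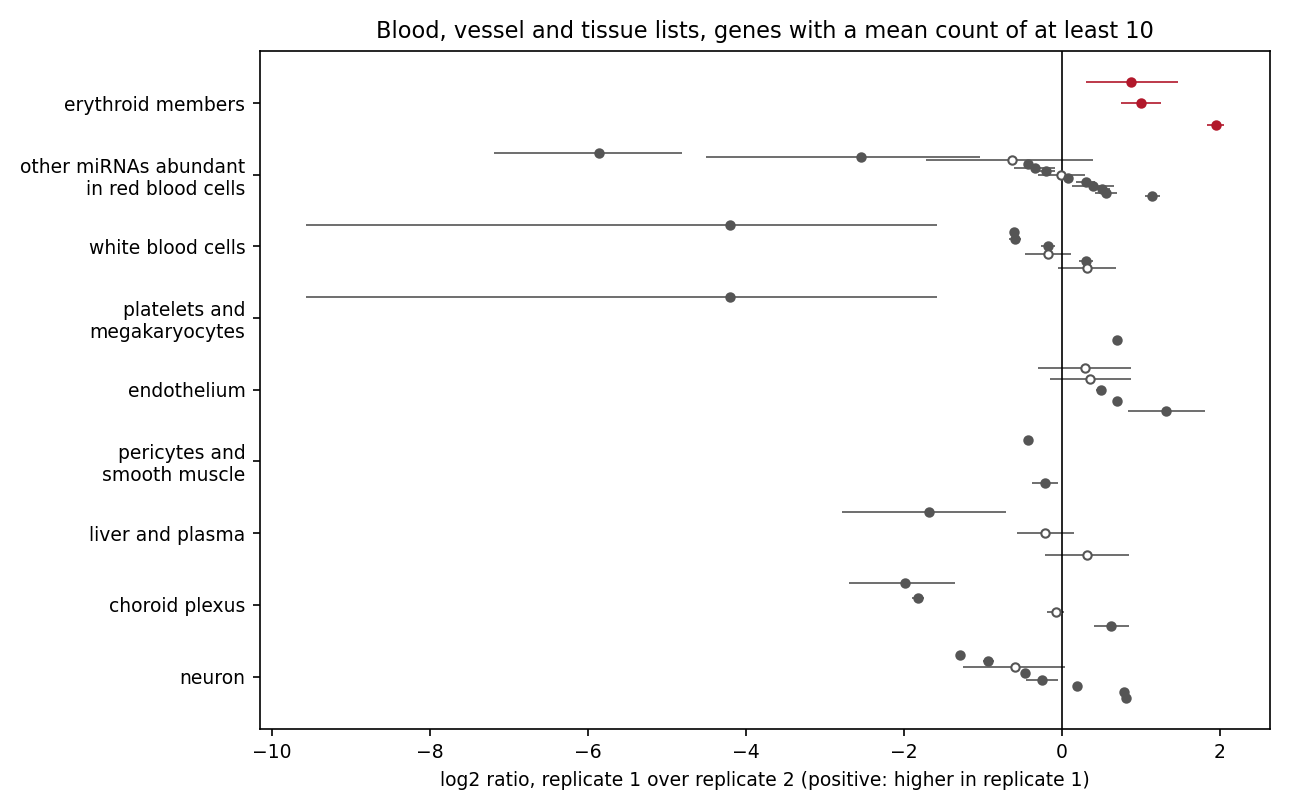
Log2 ratio of replicate 1 over replicate 2 for each gene averaging 10 or more reads, by list, with exact 95% intervals; filled points passed the adjusted read test. The erythroid genes (red) lie between 0.88 and 1.94, the points of the endothelial genes lie above 0, and the pericyte and smooth muscle genes lie below 0. The intervals of the endothelial genes Mir10a and Mir503 reach below 0.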

How the data were processed

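The authors deposited whole-number read counts per miRNA gene, not normalized, for each of 2 libraries of total RNA (inserts under 30 nucleotides, per the labels). The README notes beside the tables name assembly mm10 and GENCODE M21; for the aligner and counter, nothing is given in the sources used here. The unnamed columns were read as unstranded, sense and antisense, because the sense column held nearly all gene reads. Rows naming no gene held 69.5% and 65.3% of reads in replicates 1 and 2 and were left out. The libraries differed in these rows. Unplaced reads were 26.8% in replicate 1 and 14.7% in replicate 2, and reads with several places 38.9% and 45.8%.

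Computed here were CPM, exact intervals (95%), a read test over all genes (threshold 0.05), Fisher's exact tests and medians of lists. With 1 group of 2 libraries, replicated count models could not be fitted. A chi-square over genes was 463 times its degrees of freedom, so the counts differed beyond sampling noise and were kept as 2 replicates. Members and lists were chosen with earlier results of these data known. The text names every member, 3 genes per list and those under 10 reads, neighbours in level and within 10000 bases, and 5 genes of like ratio. Mir142, Mir223, Mir182, Mir363, Mir9-1, Mir9-3, Mir10a, Mir503 and the rank of Mir15a were singled out, and the adjacent pairs added, after values were seen. Mir92-1, Mir92-2, Mir16-1, Mir16-2, Mir181a-1, Mir128-2, Mir138-1 and Mir138-2 were singled out then too. The read test was tested on simulated counts. Alternatives used edgeR 4.0.16 and DESeq2 1.42.0 scaling factors, other totals, filters and pseudocounts. Python 3.11.15, scipy 1.17.1, pandas 2.3.3, numpy 2.4.6, matplotlib 3.10.9 and R 4.3.3 were used.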

Additional observations from a re-analysis of the deposited data

Results flagged for a closer look

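Reads outside the gene counts bear on Mir486. Its hairpin had 6 antisense reads in replicate 1, more than the 3 that a count of 0 allows, and 3 in replicate 2; by position these are the sense reads of Mir3107 on the opposite strand. Reads with several places in the genome numbered 3734600 in replicate 1 and 4807740 in replicate 2, which is 1.28 and 1.32 per read on a miRNA gene, and the files do not say which hairpins they match. The limit for a count of 0 holds for a gene and does not apply to these totals.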

How the results depend on the processing

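The log2 ratios of replicate 1 over replicate 2 kept their sign under TMM and DESeq2 scaling and with totals without the most abundant gene. They also did so with all reads as the total and with pseudocounts of 1 and 0.1 CPM. All 3 genes stayed past the threshold of the read test under these scalings and totals. The read test uses no pseudocount, so pseudocounts could not change it. The log2 ratios ranged from 1.76 to 2.00 for Mir451a, 0.81 to 1.05 for Mir144 and 0.69 to 0.93 for Mir486. Adding the reads of Mir3107 to Mir486, chosen after seeing the data, gave 0.91. Counts without strand moved the levels of Mir451a and Mir486 to 0, left 1 gene detected and 1 called, and gave no ratio for them, since reads over opposite genes are set apart there. With all reads as the total, which is larger, Mir451a was at 205 CPM, Mir144 at 27.6 CPM and Mir486 at 5.48 CPM. Levels in 1 library alone ranged from 270.02 to 1039 CPM for Mir451a, 57.6 to 115 CPM for Mir144 and 12.1 to 22.2 CPM for Mir486. Detection was the same with at least 5 or 20 reads. Medians of the red cell list changed sign under 4 of 6 alternatives, staying between -0.01 and 0.08; that of the neuron list was 0.19 and that of the platelet list 0.32 with a mean count of at least 1, and the platelet list was at 0.69 and the choroid plexus list at -0.08 with at least 100. The odds ratio of Mir451a to Mir144 is free of scaling. No paired analysis was possible because there is 1 group. Depth limits the precision of Mir486 and Mir451b, and reads with several places limit Mir486 by an unknown amount.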
